A study of Mus musculus with 6 samples.

Results

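Collagens are the main structural proteins of the extracellular matrix, and the transcripts described here are the 44 genes of the deposited count table whose symbol is Col, a number, a and a number, out of 46095 genes in all. RNA sequencing was done on 6 mouse hearts, 3 of them of the genotype STAT3cKO and 3 of them wild type (titled NC). STAT3cKO hearts carry replicate numbers 3, 6 and 91 and wild-type hearts 1, 3 and 4, and values per heart below follow this order, each heart being called by its number. The labels name no Cre driver, no age, sex, strain or litter, and do not say that each library came from a separate animal, so p-values may measure only technical spread. The design text names key pathways of heart function in STAT3cKO mice as the object of the study.

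Each collagen is built from chains that wind into a triple helix. Fibrillar collagens (types I, III and V in the heart) form the load-bearing fibres between muscle cells and are made mainly by fibroblasts. Basement membrane collagens, above all type IV, form the sheet-like network that surrounds capillaries, smooth muscle and each cardiomyocyte, and endothelial and mural cells are main sources of it. Types XV and XVIII lie in the basement membrane zone and are grouped with type IV here. The remaining genes include the beaded filament collagen VI, the FACIT collagens that sit on fibril surfaces, the short-chain collagen VIII, the anchoring fibril collagen VII and transmembrane collagens. The 44 genes comprised 11 fibrillar, 8 basement membrane and 25 other collagens.

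Total counts per heart ran from 15416877 to 18264052, and collagens took 0.235% to 0.263% of them in wild type and 0.136% to 0.175% in STAT3cKO. Summed over 12 cardiomyocyte markers the level was 66851 to 74532 CPM in wild type and 70492 to 83124 CPM in STAT3cKO, where CPM is the count scaled to library size with TMM factors. Of these markers 3 rose and 2 fell (edgeR adjusted p under 0.05), against 13.2% and 12.6% of all genes tested. Tnnt2 (log2 fold change 0.55), Tnni3 (0.62) and Myl2 (0.80) rose. Ryr2 (-0.65) and Atp2a2 (-0.55, named after its values were seen) fell. With an offset for transcript length and GC content, 3 rose and 0 fell, against 10.9% and 7.91%. These 3 were not the same: Tnni3 did not pass (edgeR adjusted p = 0.0993). Ttn, named after its values were seen, rose instead (0.64, against 0.04 without the offset). Stat3 itself was at 99.7, 85.8 and 97.5 CPM in the wild-type hearts against 52.9, 63.7 and 59.6 CPM in the STAT3cKO hearts, so the groups did not overlap (log2 fold change -0.68 ± 0.10 SE, edgeR adjusted p = 0.000677). Of the 44 collagens, 32 passed the low-count filter, among them 8 fibrillar, all 8 basement membrane and 16 other collagens. The 12 that did not pass held at most 30 counts in any heart. They were Col2a1, Col11a1 and Col24a1 among the fibrillar genes, and Col6a4, Col6a5, Col9a1, Col9a2, Col10a1, Col17a1, Col19a1, Col25a1 and Col26a1 among the others.

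The RefSeq promoter windows of 4 genes are shown, because Col4a1 and Col4a2 were the most abundant collagens of the wild-type hearts per kilobase and fell together, Col1a2 fell with the smallest adjusted p of the fibrillar collagens, and Col7a1 was the only collagen that rose. Col4a1 (GRCm38 chr8:11198423-11312889, minus strand) and Col4a2 (chr8:11312805-11449287, plus strand) are transcribed away from each other from one shared region. Each window runs from 250 bases before to 50 bases after an annotated start site, 5′ to 3′ on the gene's strand, in build GRCm38.p6, with Col4a1 at chr8:11312777-11313076 (minus), Col4a2 at chr8:11312555-11312854 (plus), Col1a2 at chr6:4505368-4505667 (plus) and Col7a1 at chr9:108953336-108953635 (plus). Capitals mark the letters GGGCGG (GC box), CCAAT or TATAAA, or the STAT motif TTCNNNGAA, on either strand.
Col4a1: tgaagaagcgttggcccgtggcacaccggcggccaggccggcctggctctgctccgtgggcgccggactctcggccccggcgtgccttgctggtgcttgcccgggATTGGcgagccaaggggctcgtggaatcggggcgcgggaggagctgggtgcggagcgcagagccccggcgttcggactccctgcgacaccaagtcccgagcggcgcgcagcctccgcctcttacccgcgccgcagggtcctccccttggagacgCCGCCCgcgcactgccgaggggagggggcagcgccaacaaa
Col4a2: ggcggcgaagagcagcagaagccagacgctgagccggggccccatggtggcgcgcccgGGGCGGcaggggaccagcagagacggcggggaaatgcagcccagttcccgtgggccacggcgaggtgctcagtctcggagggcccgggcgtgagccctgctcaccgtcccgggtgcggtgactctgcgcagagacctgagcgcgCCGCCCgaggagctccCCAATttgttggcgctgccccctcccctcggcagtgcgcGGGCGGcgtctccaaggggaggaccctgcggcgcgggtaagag
Col1a2: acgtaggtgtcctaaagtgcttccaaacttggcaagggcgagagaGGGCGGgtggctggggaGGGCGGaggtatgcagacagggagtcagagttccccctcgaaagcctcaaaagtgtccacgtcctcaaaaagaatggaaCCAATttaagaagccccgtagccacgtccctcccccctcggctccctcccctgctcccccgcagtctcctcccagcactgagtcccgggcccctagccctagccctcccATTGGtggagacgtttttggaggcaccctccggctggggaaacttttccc
Col7a1: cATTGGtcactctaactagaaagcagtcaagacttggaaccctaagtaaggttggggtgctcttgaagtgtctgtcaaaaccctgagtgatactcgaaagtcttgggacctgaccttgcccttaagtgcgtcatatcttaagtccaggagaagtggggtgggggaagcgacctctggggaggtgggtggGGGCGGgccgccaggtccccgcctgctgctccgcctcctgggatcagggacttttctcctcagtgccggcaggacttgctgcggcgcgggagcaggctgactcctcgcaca

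The windows of Col4a1 and Col4a2 share 78 bases, and their start sites lie 21 bases apart, so a GC box at position 10 of the Col4a1 window and position 8 of the Col4a2 window is the same stretch read from opposite strands. CCAAT, on either strand, lay at -145 in the Col4a1 window, -32 in Col4a2, -109 and 1 in Col1a2 and -249 in Col7a1. Positions count the start site as 1. None of the 4 windows held TTCNNNGAA. RefSeq windows were matched for 35 of the 44 genes (38 windows). GGGCGG was found in 23 of these 38 windows against 35.7% of 32851 mouse promoter windows, CCAAT in 13 against 37.4%, TATAAA in 5 against 13.6%, and TTCNNNGAA in 2 (Col28a1 and Col6a5) against 8.3%. A match is a description of letters, not of binding.

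STAT3cKO hearts held less collagen transcript, and most of the difference was in basement membrane chains. Summed over all 44 genes, the level was 2210, 2537 and 2389 CPM in the wild-type hearts against 1427, 1527 and 1712 CPM in the STAT3cKO hearts. Basement membrane collagens made up 1202, 1233 and 1355 CPM of this in wild type and 666, 652 and 678 CPM in STAT3cKO. Every STAT3cKO heart lay below every wild-type heart for both sums. Fibrillar collagens summed to 661, 875 and 693 CPM in wild type against 459.6, 550.2 and 673 CPM in STAT3cKO, and the other collagens to 347, 429 and 340.2 CPM and to 301, 325 and 361 CPM. These last 2 sums overlapped between the groups. In bulk heart RNA, fewer cells of a type and less RNA per cell cannot be told apart.

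**Figure D1:**
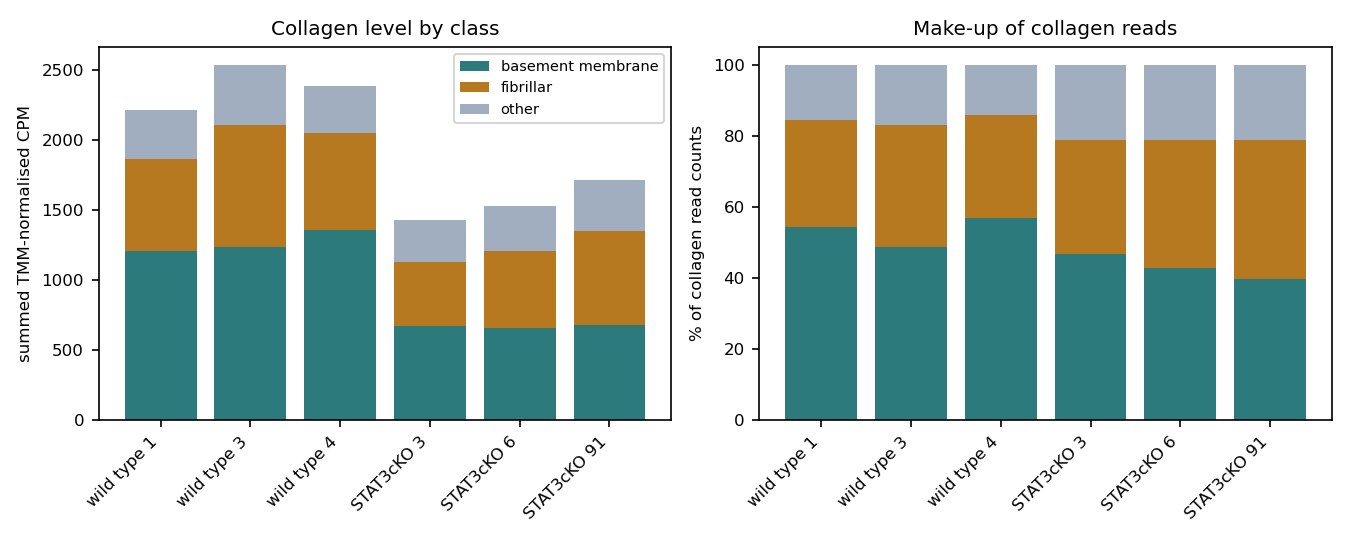
Left, TMM-normalised CPM summed over basement membrane, fibrillar and other collagens, stacked for each of the 6 hearts; right, the percentage of each heart's collagen reads in each class. The basement membrane sum was 652 to 678 CPM in the 3 STAT3cKO hearts and 1202 to 1355 CPM in the 3 wild-type hearts.

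Of the 32 collagens tested, 11 fell, 1 rose and 20 did not pass (edgeR adjusted p under 0.05 over all genes tested). Over the 14484 genes tested, 12.6% fell and 13.2% rose. The median log2 fold change, STAT3cKO minus wild type, was -0.29 for the collagens and 0.00 for all genes tested. By class, 7 of 8 basement membrane, 2 of 8 fibrillar and 2 of 16 other collagens fell, and the medians were -0.86, -0.27 and -0.01. Groups were free of overlap for 15 of the 32, with 13 lower and 2 higher in STAT3cKO, while 21.5% of all genes tested were lower and 21.5% higher without overlap. A difference between the classes was not tested. The collagen transcripts are long, with a median of 6084 nucleotides against 3326 for all genes tested. With an offset for transcript length and GC content fitted to each heart, 5 collagens fell (3 basement membrane, 1 fibrillar and 1 other) against 7.91% of all genes, 3 rose against 10.9%, and the class medians became -0.57, 0.03 and 0.10. Without wild-type heart 3, 6 collagens fell, and without STAT3cKO heart 3, 7 fell.

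**Figure D2:**
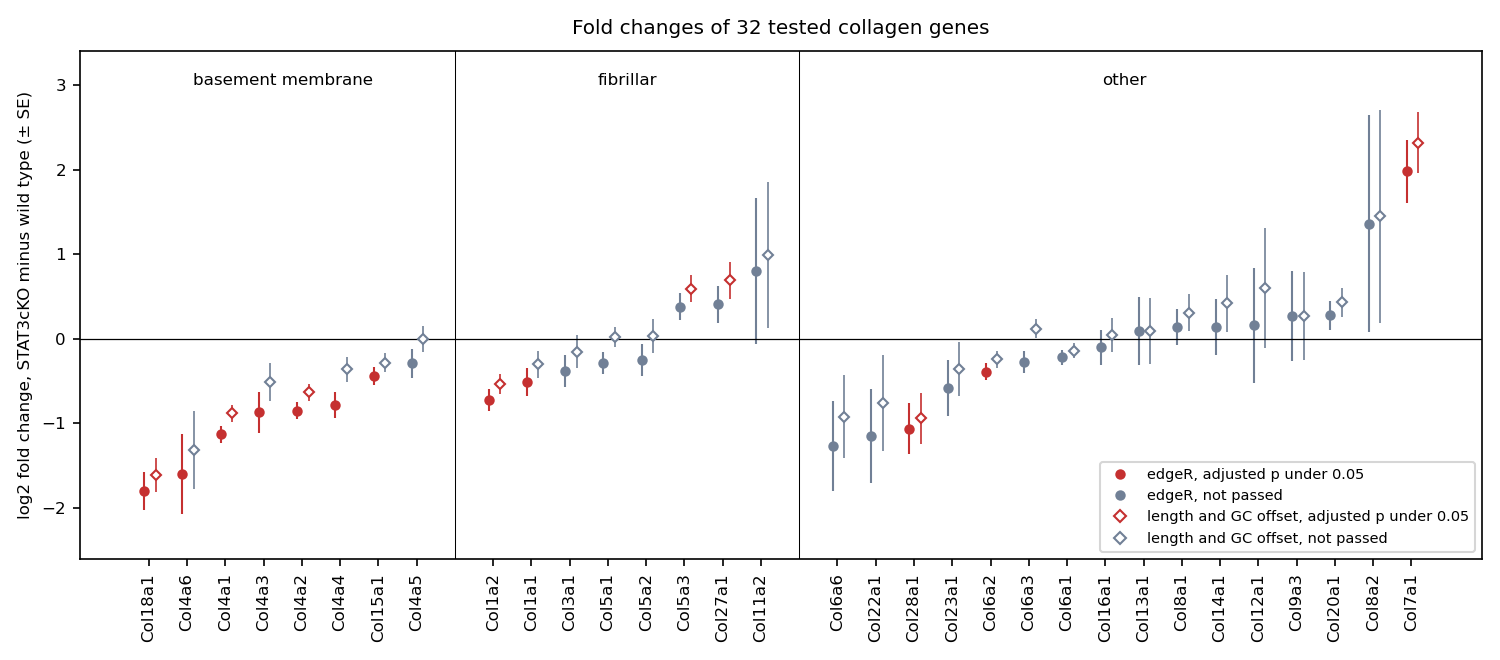
Log2 fold change, STAT3cKO minus wild type, with its SE for each of the 32 tested collagens, by class and in order of size. Filled circles are the edgeR fit, open diamonds the fit with the GC and length offset, and red marks an adjusted p under 0.05; Col18a1 (-1.80), Col4a1 (-1.13) and Col4a2 (-0.85) were red in both fits, and Col7a1 lies highest in both, at 1.98 and, with the offset, 2.32.

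Type IV collagen is made of chains in fixed combinations, of which the Col4a1 and Col4a2 chains form the common network. Col4a1 stood at 613, 604 and 683 CPM in the wild-type hearts against 296, 274 and 300.2 CPM in the STAT3cKO hearts. The groups were far apart compared with the spread inside each, and the level fell by 2.18-fold (log2 fold change -1.13 ± 0.10 SE, edgeR adjusted p = 2.72e-05). Col4a2 stood at 417, 393 and 459.6 CPM and at 233, 223 and 248 CPM, also without overlap (-0.85 ± 0.10, edgeR adjusted p = 0.000187). Both calls were kept under all 15 alternative settings, with log2 fold changes from -1.23 to -0.88 for Col4a1 and from -0.96 to -0.63 for Col4a2.

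The pair did not fall in equal measure. Per kilobase of transcript, the ratio of Col4a1 to Col4a2 was 1.43, 1.5 and 1.45 in the wild-type hearts against 1.24, 1.20 and 1.18 in the STAT3cKO hearts, so that each STAT3cKO heart held less Col4a1 for its Col4a2. Together the pair took 46.6%, 39.3% and 47.8% of collagen reads in wild type against 37.1%, 32.6% and 32% in STAT3cKO. The exons of the pair share 22 bases on opposite strands, 0.295% of the Col4a1 exons.

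Among the minor type IV chains, Col4a3 and Col4a4, neighbours on chromosome 1 that form a network with the Col4a5 chain, both fell. Col4a4 was at 15.8, 18.4 and 22.7 CPM in wild type against 10.6, 10 and 12.5 CPM in STAT3cKO (log2 fold change -0.78 ± 0.15, edgeR adjusted p = 0.0033), and Col4a3 at 5.97, 10.6 and 10.3 CPM and at 3.62, 5.45 and 5.47 CPM (-0.87 ± 0.24, adjusted p = 0.0209). Neither gene's groups overlapped, and with the GC and length offset neither passed (edgeR adjusted p = 0.121 for Col4a4 and 0.145 for Col4a3). The Col4a3 call was also lost without wild-type heart 3 (0.0774) or 4 (0.0832) or STAT3cKO heart 3 (0.0762). Of the Col4a3 exon bases, 5.65% overlap a gene on the other strand.

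The X-linked pair Col4a5 and Col4a6 differed in their calls. Col4a5 was at 32.7, 48.7 and 51.3 CPM and at 33.0, 42.2 and 33.6 CPM, overlapping between groups (log2 fold change -0.29 ± 0.17, edgeR adjusted p = 0.241). It passed with no low-count filter (edgeR adjusted p = 0.035) and without wild-type heart 1 (0.0273). Col4a6 was at 1.70, 6.56 and 3.07 CPM and at 0.887, 1.43 and 1.37 CPM and fell (-1.60 ± 0.47, edgeR adjusted p = 0.0312). The Col4a6 call was lost in each fit without 1 heart except that without wild-type heart 1, with adjusted p from 0.0606 to 0.111, and also with limma-voom (0.0812) and the GC and length offset (0.074).

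Collagen XVIII, whose C-terminal fragment is endostatin, showed the largest decrease among the basement membrane members. Col18a1 (chr10:77052178-77166530) stood at 17.5, 26.6 and 13.9 CPM in wild type against 5.46, 5.65 and 5.53 CPM in STAT3cKO (log2 fold change -1.80 ± 0.22, edgeR adjusted p = 0.000551). The STAT3cKO hearts were nearly level while the wild-type hearts spread from 13.9 to 26.6 CPM, and the call was kept under all 15 alternatives (-1.99 to -1.5). Collagen XV, a related proteoglycan of the capillary basement membrane, was at 98.1, 125 and 111 CPM for Col15a1 in wild type and 84.2, 90.04 and 72.0 CPM in STAT3cKO. It fell by less (-0.44 ± 0.11, edgeR adjusted p = 0.0123), and the call was lost with the GC and length offset (edgeR adjusted p = 0.087) and without wild-type heart 3 (0.0614).

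**Figure D3:**
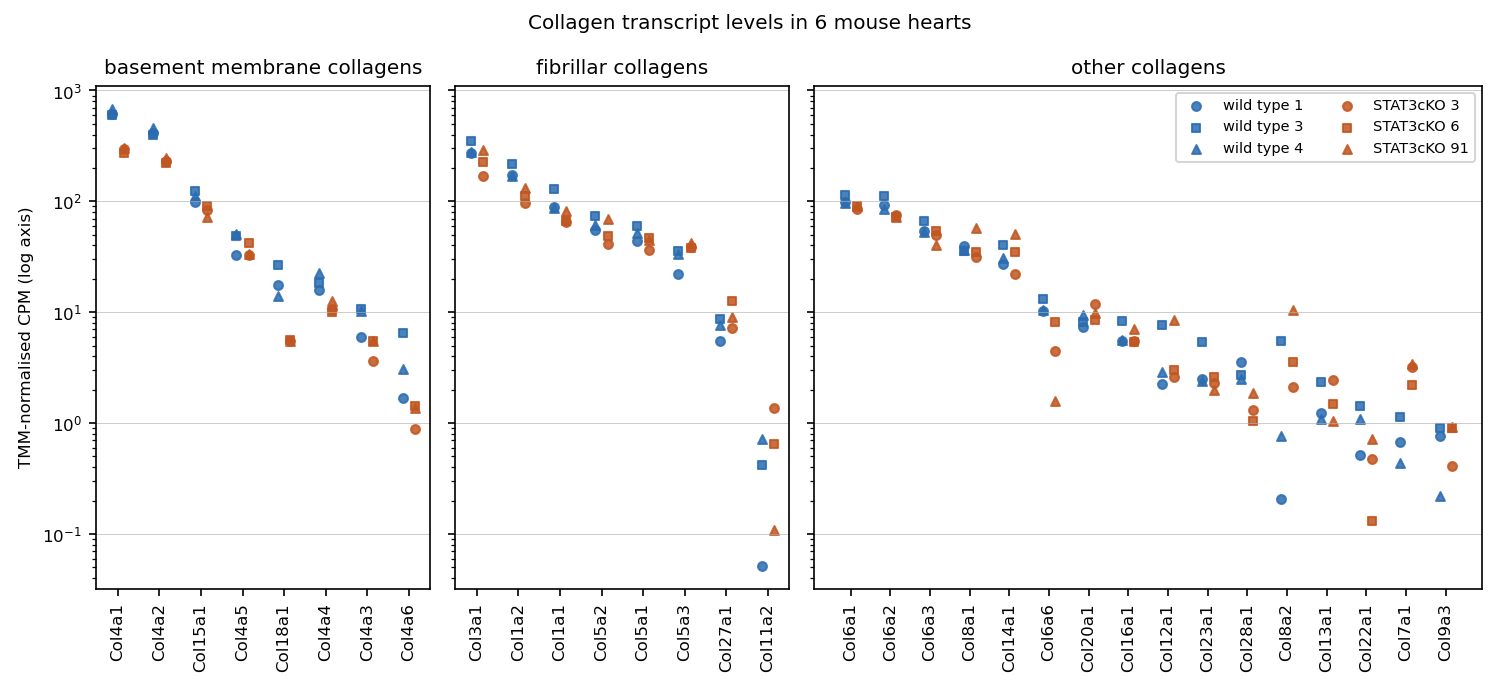
TMM-normalised CPM on a log axis for the 32 tested collagens in each heart, by class and in order of wild-type mean; blue symbols are wild-type and orange symbols STAT3cKO hearts, with a symbol shape per replicate. Blue and orange points are apart for Col4a1, Col4a2 and Col18a1 and mixed for Col3a1, Col5a2 and Col14a1.

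Among fibrillar collagens, type I fell and types III and V did not pass. Type I collagen joins chains of Col1a1 and Col1a2. Col1a2 (chr6:4505618-4541543) was at 173, 217 and 171 CPM in wild type against 97.2, 111 and 132 CPM in STAT3cKO, without overlap (log2 fold change -0.72 ± 0.13, edgeR adjusted p = 0.00226). It passed under all 15 alternatives (-0.84 to -0.53). Col1a1 (chr11:94936224-94953042) was at 88.8, 130.1 and 87.4 CPM and at 65.7, 66.7 and 82.6 CPM (-0.51 ± 0.16, edgeR adjusted p = 0.0467). Its groups also did not overlap, but STAT3cKO heart 91 lay just under the lowest wild-type heart, and the call was lost under 6 of 15 alternatives. These were upper-quartile factors (edgeR adjusted p = 0.0618), the stricter filter (0.0524), the GC and length offset (0.21), and the fits without wild-type heart 3 (0.104), STAT3cKO heart 3 (0.138) or STAT3cKO heart 6 (0.154). Per kilobase, the ratio of Col1a1 to Col1a2 was 0.462, 0.541 and 0.461 in wild type and 0.610, 0.539 and 0.563 in STAT3cKO, with the groups overlapping.

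Type III collagen, the distensible fibre protein co-assembled with type I, was the most abundant fibrillar chain, at 53.8 ± 7.43 CPM per kilobase in wild type (SD, n = 3). Col3a1 (chr1:45311538-45349706) was at 272, 347 and 279 CPM in wild type against 171, 225 and 293 CPM in STAT3cKO. STAT3cKO heart 91 stood among the wild-type hearts, and the difference did not pass (log2 fold change -0.38 ± 0.19, edgeR adjusted p = 0.169). Without that heart it passed (-0.59, edgeR adjusted p = 0.0155), as it did with no low-count filter (-0.40, 0.00157).

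Type V collagen sets fibril diameter. Its main chains were at 44.2, 60.4 and 52.3 CPM against 36.7, 46.4 and 44.7 CPM for Col5a1 (log2 fold change -0.29 ± 0.13, edgeR adjusted p = 0.107), and at 54.9, 73.8 and 61.3 CPM against 41.1, 49.1 and 68.8 CPM for Col5a2 (-0.25 ± 0.19, adjusted p = 0.367). Both genes overlapped between the groups. Col5a1 passed with library size alone (edgeR adjusted p = 0.0339), with no filter (0.0252) and without wild-type heart 1 (0.045), and Col5a2 without STAT3cKO heart 91 (0.0271). The third chain, Col5a3, lay the other way, at 22.1, 35.7 and 33.5 CPM in wild type against 38.8, 37.9 and 41.9 CPM in STAT3cKO. Every STAT3cKO heart was above every wild-type heart, and the difference did not pass (0.38 ± 0.16, edgeR adjusted p = 0.0986). It passed with no filter (0.36, edgeR adjusted p = 0.0144) and with the GC and length offset (0.59, 0.0259). Col27a1, a fibrillar chain best known from cartilage, was at 5.56 to 8.65 CPM and 7.23 to 12.7 CPM (0.41 ± 0.22, edgeR adjusted p = 0.203; 0.0478 with the offset). Col11a2 held 1 to 20 counts per heart (edgeR adjusted p = 0.528). In the edgeR fit without offset and in DESeq2 no fibrillar collagen rose, and 1 was higher at an unadjusted p under 0.05.

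The hearts within a group differed in collagen level. Among wild-type hearts, replicate 3 was highest for 7 of 8 tested fibrillar, 13 of 16 other and 4 of 8 basement membrane collagens, and for 30.5% of all genes tested. Among STAT3cKO hearts, replicate 91 was highest for 5 of 8 fibrillar, 10 of 16 other and 4 of 8 basement membrane collagens, and for 33.5% of all genes. Matrix genes of activated fibroblasts moved with these hearts. Summed over 8 such markers the level was 198, 344 and 207 CPM in wild type against 215, 249 and 643 CPM in STAT3cKO, with Cthrc1 at 0 in every heart. In that list 1 of 7 tested genes fell and 0 rose in edgeR and in DESeq2 (1 and 0 also at an unadjusted p under 0.05). The share that fell was near the 12.6% of all genes tested, of which 13.2% rose. The gene that fell was Fbn1 (log2 fold change -0.68), and it did not pass with the GC and length offset (edgeR adjusted p = 0.2). Most of the tested markers lay the other way, with a median of 1.1, or 1.2 with the offset. Postn (1.11), Comp (1.39), Cilp (1.59) and Ltbp2 (1.33) were higher, and Meox1 (-0.17) and Tnc (-0.77) lower. These 6, named after their values were seen, did not pass and overlapped between the groups. Fibrillar collagens took 29.9%, 34.5% and 29.0% of collagen reads in wild type and 32.2%, 36.0% and 39.3% in STAT3cKO, so the highest wild-type heart exceeded the lowest STAT3cKO heart. The part of activated fibroblast markers in the collagen levels was not tested.

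Collagen VI forms beaded filaments that link cells to the matrix and joins chains of Col6a1, Col6a2 and Col6a3. Col6a2 was at 92.0, 111 and 84.7 CPM in wild type against 74.7, 72.1 and 72.2 CPM in STAT3cKO and fell (log2 fold change -0.39 ± 0.10, edgeR adjusted p = 0.0151). That call did not hold without wild-type heart 3 (edgeR adjusted p = 0.0787) and with the GC and length offset (0.0998). Col6a1 was at 98.5, 115 and 97.0 CPM and at 85.4, 90.4 and 91.7 CPM, without overlap (-0.22 ± 0.09, edgeR adjusted p = 0.105), and Col6a3 at 53.5, 67.1 and 52.4 CPM and at 49.4, 53.8 and 40.3 CPM (-0.27 ± 0.13, adjusted p = 0.136). Neither passed, except with library size alone (edgeR adjusted p = 0.0308 for Col6a1 and 0.0257 for Col6a3) and, for Col6a3, with no filter (0.0384). Col6a3 had a log2 fold change of 0.12 with the GC and length offset.

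Col6a6, a later-found chain of the same family, stood at 10.3, 13.3 and 10.4 CPM in wild type against 4.50, 8.11 and 1.59 CPM in STAT3cKO, from 29 counts in replicate 91 to 125 in replicate 6. Every STAT3cKO heart was below every wild-type heart, and the gene did not pass (-1.27 ± 0.53, edgeR adjusted p = 0.139). It passed with limma-voom (adjusted p = 0.0152), without robust estimation (edgeR, 0.0391), and without STAT3cKO heart 6 (0.0102) or 91 (0.0301).

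Col7a1, the collagen of anchoring fibrils under epithelia, was low in wild-type hearts and higher in STAT3cKO hearts. Raw counts were 13, 19 and 8 in wild type and 47, 34 and 62 in STAT3cKO, or 0.669, 1.13 and 0.439 CPM and 3.21, 2.21 and 3.39 CPM. The groups did not overlap, and the gene rose (log2 fold change 1.98 ± 0.37, edgeR adjusted p = 0.00251), also under the 14 alternatives in which it was tested (1.71 to 2.38). It did not reach the stricter filter. Even in STAT3cKO it remained at 0.317 ± 0.0690 CPM per kilobase (SD, n = 3), against 43.9 ± 2.08 for Col4a1.

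Of the remaining other collagens, Col28a1, a von Willebrand factor A domain collagen of peripheral nerve, fell from 3.55, 2.74 and 2.52 CPM to 1.30, 1.04 and 1.86 CPM (log2 fold change -1.06 ± 0.30, edgeR adjusted p = 0.0226). It no longer passed when wild-type heart 1 (edgeR adjusted p = 0.0925), STAT3cKO heart 3 (0.0689) or STAT3cKO heart 6 (0.0564) was left out. Beside it, 2 of 7 tested Schwann cell markers fell and 0 rose in edgeR and in DESeq2 (6 and 0 at an unadjusted p under 0.05). Of all 14484 genes tested, 12.6% fell and 13.2% rose in edgeR. At an unadjusted p under 0.05, 2805 of all genes were lower and 2781 higher. The Schwann cell markers that fell were Sox10, at a log2 fold change of -2.61, and Gfra3, at -2.75. The 8 listed markers summed to 30.2 to 45.5 CPM in wild type and 16 to 24.9 CPM in STAT3cKO. None of these markers was at 0 in all hearts, and their part in the Col28a1 difference was not tested.

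FACIT and short-chain collagens did not pass. Col14a1, which binds fibril surfaces, was at 27.1, 40.4 and 30.9 CPM and at 22.2, 34.8 and 51.1 CPM (log2 fold change 0.14 ± 0.33, edgeR adjusted p = 0.788). Col8a1, a collagen of vessel walls, was at 39.6, 35.8 and 36.8 CPM and at 31.3, 35.1 and 57.2 CPM (0.14 ± 0.21, adjusted p = 0.655). STAT3cKO heart 91 was the highest heart for both. Col12a1, Col16a1, Col20a1, Col22a1 and Col9a3 had log2 fold changes from -1.15 to 0.28. No FACIT gene was called by edgeR, by DESeq2 or at an unadjusted p under 0.05, and the same held for Col8a1 and Col8a2 and for the transmembrane collagens Col13a1 (0.09) and Col23a1 (-0.58). Col8a2 spread from 0.206 to 5.55 CPM in wild type and from 2.12 to 10.5 CPM in STAT3cKO (1.36 ± 1.28, edgeR adjusted p = 0.497).

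The genes that fold, process, bind and break down collagen were read from 5 lists of 68 genes, of which 62 were tested. In all, 15 fell and 5 rose, beside 12.6% and 13.2% of all genes tested. Sparc, a collagen-binding glycoprotein needed for type IV deposition, was at 502, 435 and 457 CPM in wild type against 226, 269.6 and 271 CPM in STAT3cKO (log2 fold change -0.86 ± 0.10, edgeR adjusted p = 0.000271). Nid2, a nidogen that ties laminin to type IV collagen, was at 35.6, 31.3 and 34.4 CPM and at 16, 19.6 and 13.2 CPM (-1.05 ± 0.14, adjusted p = 0.00037). Nid1, its paralog, named here after its values were seen, fell too (-0.78 ± 0.12, edgeR adjusted p = 0.000983). Pxdn, the peroxidasin that crosslinks type IV collagen, was at 115, 109 and 117 CPM and at 59.0, 72.4 and 53.7 CPM (-0.88 ± 0.11, adjusted p = 0.000284). For these 4 genes each STAT3cKO heart was below each wild-type heart, and each passed under every alternative.

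Among 13 genes listed as fibril organisers 5 fell and 2 rose, against 12.6% and 13.2% of all genes tested, with a median log2 fold change of -0.45. The 5 include Sparc and the nidogens Nid1 and Nid2, described above with type IV collagen. The others that fell were fibronectin, Fn1 (-1.16 ± 0.15, edgeR adjusted p = 0.000862), and Tnxb (-1.40), the latter chosen after its values were seen. The 2 that rose are small leucine-rich proteoglycans, and 4 others of that family on the list did not pass, with log2 fold changes of 0.02 for Bgn, 0.05 for Lum, -0.45 for Prelp and -1.27 for Fmod. Ogn was at 140.3, 165 and 146 CPM in wild type against 245, 318 and 274 CPM in STAT3cKO (0.89 ± 0.11, edgeR adjusted p = 0.000306), and Dcn, decorin, chosen after its values were seen, at 718, 952 and 587 CPM and at 1127, 1325 and 1459 CPM (0.79 ± 0.17, adjusted p = 0.00715). Both rose without overlap between the groups, where Col1a1 and Col1a2 fell.

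Of 20 tested genes for folding and secretion, 3 fell, 1 rose and 16 did not pass, with a median of -0.10. The share that fell was near the 12.6% of all genes tested, and the share that rose was under their 13.2%. Those that fell were Fkbp10 (-0.74) and Plod1 (-0.51), of the endoplasmic reticulum machinery for lysine modification and folding, and Mia3 (-0.35), a cargo receptor for procollagen export. Ppib, a prolyl isomerase, rose (0.51); 25.0% of its exon bases overlap a gene on the other strand. The Mia3 call was lost without wild-type heart 4 (edgeR adjusted p = 0.0618) or STAT3cKO heart 91 (0.0537). Serpinh1, the collagen chaperone HSP47 (also named with its values known), stood at 227 ± 17.0 CPM in wild type against 214 ± 11.1 CPM in STAT3cKO (SD, n = 3 each; edgeR adjusted p = 0.521).

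Of 15 genes for processing and crosslinking, 3 fell and 2 rose, shares not far from the 12.6% and 13.2% of all genes tested. Beside Pxdn, the tolloid proteinase gene Tll2 (-2.96) and the lysyl oxidase Loxl2 (-0.78) fell. Tll2 was low, at 2.93, 1.67 and 2.41 CPM in wild type and 0.682, 0.195 and 0.0547 CPM in STAT3cKO. Bmp1, the procollagen C-proteinase, rose from 41.4, 45.5 and 43.7 CPM to 58.4, 56.8 and 64.4 CPM (log2 fold change 0.46 ± 0.09, edgeR adjusted p = 0.0036). Loxl3, chosen after its values were seen, also rose (1.49), and its call was lost without wild-type heart 1 (edgeR adjusted p = 0.0928) or 4 (0.0835) or STAT3cKO heart 6 (0.0537), and with library size alone (0.0524). The Loxl2 call was lost without wild-type heart 3 (0.0682) or 4 (0.0684) or STAT3cKO heart 3 (0.0563) or 6 (0.0779), and under the GC and length offset (edgeR adjusted p = 0.0904).

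Of 7 tested collagen receptors 3 fell and 0 rose (edgeR; 5 and 0 at an unadjusted p under 0.05, 4 and 0 in DESeq2), and with the GC and length offset 1 fell. Of all 14484 genes tested, 12.6% fell and 13.2% rose in edgeR, and 7.91% fell with the offset. At an unadjusted p under 0.05, 2805 of all genes were lower and 2781 higher, and in DESeq2 1739 and 1814. Itga1, the integrin chain that binds type IV collagen, was at 74.1, 65.0 and 79.1 CPM in wild type against 21.1, 25.3 and 19.4 CPM in STAT3cKO, and had the smallest adjusted p of the 5 lists (log2 fold change -1.73 ± 0.12, edgeR adjusted p = 4.15e-06). Ddr2, a receptor of fibrillar collagen, fell by 0.42 on the log2 scale, but under the GC and length offset it did not pass (edgeR adjusted p = 0.554), and Lair1 fell by 0.83. The Lair1 call was lost in each fit without 1 heart except that without STAT3cKO heart 91, with adjusted p from 0.0575 to 0.133. Of 7 collagen-degrading genes, 1 fell and 0 rose by edgeR, by DESeq2 and at an unadjusted p under 0.05. The share that fell by edgeR was near the 12.6% of all genes tested. The gene that fell was the collagenase Mmp13, at 1.44, 1.43 and 1.76 CPM and at 0.273, 0.260 and 0.328 CPM (-2.39 ± 0.41, edgeR adjusted p = 0.00169).

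**Figure D4:**
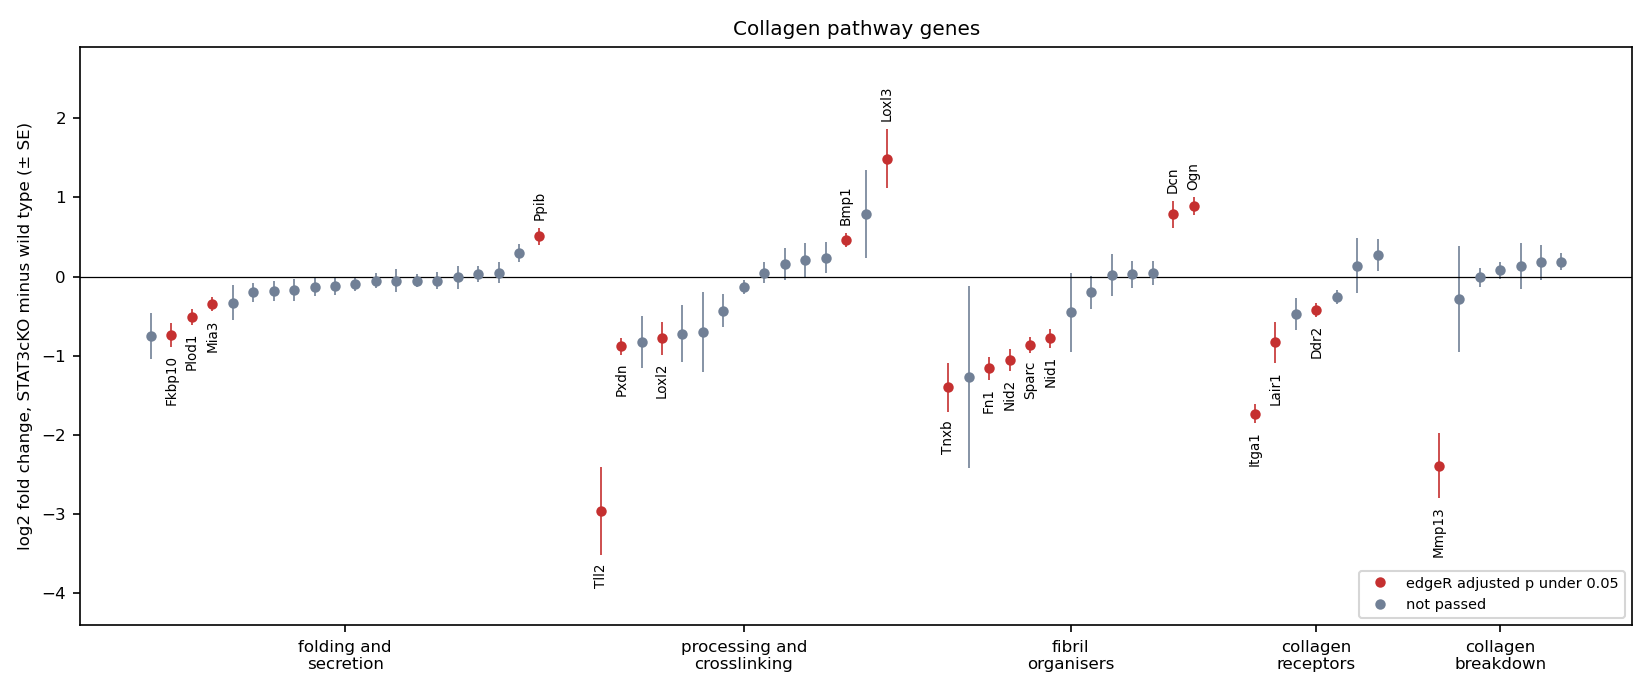
Log2 fold change, STAT3cKO minus wild type, with its SE for the 62 tested genes of the 5 collagen pathway lists, in order of size within each list; red, with names, marks an edgeR adjusted p under 0.05. Most folding and secretion genes lie near 0, while Itga1 (-1.73), Nid2 (-1.05) and Pxdn (-0.88) lie below it and Ogn (0.89) and Dcn (0.79) above.

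The summed markers of endothelial cells, smooth muscle and pericytes, and macrophages were lower in every STAT3cKO heart than in any wild-type heart, and those of fibroblasts overlapped. Over all 14484 genes tested, 12.6% fell and 13.2% rose in edgeR, and 7.91% fell with the GC and length offset. At an unadjusted p under 0.05, 2805 of all genes were lower and 2781 higher, and in DESeq2 1739 and 1814. Endothelial markers fell in 7 of 11 tested cases and 0 rose (8 and 1 at an unadjusted p under 0.05, 8 and 0 in DESeq2), among them Cdh5 (log2 fold change -1.09), Kdr (-0.77), Pecam1 (-0.70) and Tek (-0.50), and their 12 genes summed to 1514 to 1727 CPM in wild type and 1032 to 1156 CPM in STAT3cKO. The 4 that did not pass, named after their values were seen, were Egfl7 (0.23), Emcn (0.16), Esam (-0.20) and Vwf (-0.41). With the GC and length offset 6 endothelial markers fell and 0 rose. Smooth muscle and pericyte markers fell in 6 of 10 cases and 0 rose (10 and 0 at an unadjusted p under 0.05, 8 and 0 in DESeq2), among them Acta2 (-2.09), Cspg4 (-0.61), Lmod1 (-2.58) and Myh11 (-2.78, lost without STAT3cKO heart 91, edgeR adjusted p = 0.0556), with sums of 1598 to 1683 CPM and 899.9 to 1178 CPM. With the GC and length offset 3 of these 10 fell. Most of this sum came from Rgs5 (wild-type mean 747 CPM) and Abcc9 (455 CPM), named after their values were seen. Both fell, but neither passed with the offset (edgeR adjusted p = 0.067 and 0.166). Macrophage markers fell in 5 of 10 cases and 0 rose (5 and 0 at an unadjusted p under 0.05 and in DESeq2), with sums of 349 to 429 CPM and 214 to 322 CPM. Among those that fell were Cd163 (-1.68), Csf1r (-1.09), Cx3cr1 (-1.25) and Mrc1 (-0.86). With the GC and length offset 7 of the 10 macrophage markers fell and 0 rose. No fibroblast marker passed in edgeR without the offset among 12 tested (4 higher and 2 lower at an unadjusted p under 0.05, 1 and 1 in DESeq2). With the offset 1 fell, Thy1 (edgeR adjusted p = 0.0269), and 0 rose. Their sums overlapped, at 1858 to 2697 CPM in wild type and 2394 to 2855 CPM in STAT3cKO. Their log2 fold changes ran both ways, from -2.39 for Lamc3 and -0.52 for Thy1 to 1.07 for Pi16 and 1.42 for Mfap5, with a median of 0.24 (genes named after their values were seen). No gene of these 4 lists was at 0 in all hearts. For comparison, the basement membrane sum in STAT3cKO was 0.527 of that in wild type and the fibrillar sum 0.755. The part of cell make-up in the collagen differences was not tested.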

How the data were processed

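The authors deposited 1 table of raw counts for 6 heart libraries; whole numbers and unequal totals show that no normalization was applied. RNA was isolated with Trizol, per the labels' protocols. Per the submitters' processing notes, HISAT2 and GRCm38 were used. The HISAT2 version, the counting program, its strand setting and its handling of multiply mapped reads are not given in these sources, so reads of overlapping genes cannot be told apart.

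Genes were kept by filterByExpr (minimum count 10; 14484 genes), scaled by TMM and compared with edgeR 4.0.16's robust quasi-likelihood F test in R 4.3.3, with genotype as the only term and Benjamini-Hochberg adjustment over all genes tested; adjusted p under 0.05 was called. SE was taken as |log2 fold change| over the root of F. The pipeline was tested on simulated data. Groups came from the genotype label and replicate numbers from the titles. Collagen classes, gene lists and members were chosen with earlier results of these data known. Named were all tested collagens, and per list, except that of epicardium and valve, up to 4 genes with the smallest adjusted p under 0.05. Others are said to be chosen with values seen.

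Transcript length is that of the longest GENCODE M21 transcript (93.8% of genes tested, all 44 collagens). The GC and length offset is a spline trend (5 degrees of freedom) of each heart's log2 CPM deviations. Coordinates and promoter windows are from RefSeq, GRCm38.p6. Alternatives also included DESeq2 1.42.0, limma-voom (limma 3.58.1), other scalings, filters (the stricter one at least 1 CPM in 3 libraries and a mean count of 50), no robust estimation and leaving out each heart. Protein sequences were not analysed here.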

Additional observations from a re-analysis of the deposited data

How the results depend on the processing

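Of the 12 called collagens, 5 (Col4a1, Col4a2, Col18a1, Col1a2 and Col7a1) kept their call under every alternative in which they were tested, and no called collagen changed sign. Another 9 collagens passed under at least 1 alternative. Beside 11 lower and 1 higher, no filter gave 2 higher, the stricter filter 0 higher and the GC and length offset 5 lower and 3 higher. Fibrillar collagens (2 lower, 0 higher) had 1 lower with upper-quartile factors or the stricter filter, 5 lower and 1 higher with no filter, and 1 lower and 2 higher with the offset. Basement membrane collagens (7 lower) had 3 lower with the offset. Other collagens (2 lower, 1 higher) had 4 lower with library size alone, 1 lower and 0 higher with the stricter filter and 1 lower with the offset. Leaving out 1 heart gave 6 to 13 collagens lower, 1 to 4 fibrillar, 4 to 8 basement membrane and 1 to 3 other. In these fits 1237 to 1887 of all genes were higher and 1198 to 1999 lower, against 1918 and 1820 in all 6 hearts. With library size alone 1109 were higher, 2714 lower, and the median of all genes was -0.11 against 0.00; the offset gave 1145 lower. The cause of these shifts was not tested, except that the stricter filter removed Col7a1, Col28a1 and Col4a6. Col1a1 lost its call under that filter (edgeR adjusted p = 0.0524) and with upper-quartile factors (0.0618). The fibrillar share of collagen reads was 31.1% in wild type against 35.8% in STAT3cKO by reads, and 32.3% and 36.2% per kilobase. No paired analysis was possible because the groups share only the number 3 in their titles. Depth limited the rarest tested collagens: Col11a2 held 1 to 20 counts per heart.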

Other observations

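Some low collagens and matrix genes were uneven among wild-type hearts. Wild type replicate 3 held 30 counts of Col11a1 and 9 of Col9a1, where replicates 1 and 4 held 5 and 2 and 0 and 0, and the STAT3cKO hearts 0, 5 and 3 and 0, 0 and 0. Col8a2 was at 5.55 CPM in that heart against 0.206 and 0.768 CPM in the other wild-type hearts. Other collagens best known from cartilage were mixed. Col9a2 held 3, 7 and 0 counts in wild-type hearts 1, 3 and 4, and Col27a1 was at 5.56, 8.65 and 7.68 CPM. Col9a3 held 15, 15 and 4 counts, or 0.772, 0.895 and 0.219 CPM. Col11a2 held 1, 7 and 13 counts, Col2a1 0, 0 and 1, and Col10a1 0 in each. Genes chosen after their values were seen were also highest in wild-type heart 3 among wild type. Fmod was at 45.9 CPM against 5.46 and 6.36, and Prg4 at 43.8 against 13.2 and 11.6. Wif1 was at 19.6 against 1.65 and 2.41, and Comp at 40.1 against 5.25 and 4.72. In STAT3cKO replicate 91 Comp was at 97.0 CPM and Postn at 294 CPM, against 18.6 and 13.1 CPM and 77.7 and 90.6 CPM in replicates 3 and 6, while Wif1 was at 2.24 CPM. All markers of epicardium and valve together summed to 48.1, 92.3 and 46.8 CPM in wild type against 31.9, 36.3 and 47.5 CPM in STAT3cKO. This sum includes Prg4 and Wif1, which were named for their values in wild-type heart 3. Of the remaining markers on the list, only Cldn11, at 0.298 CPM, was highest in that heart among wild type. Upk3b was at 12.6, 10.7 and 10.04 CPM and Msln at 8.6, 5.61 and 7.41 CPM in wild-type hearts 1, 3 and 4. Both were named after their values were seen.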
